A study of Mus musculus with 8 samples.

Results

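The nuclei described here are those that the authors labelled PP cells, the rare islet cells named after pancreatic polypeptide. They were taken as the 6 columns of the deposited single nucleus RNA-seq table that carry the PP cell label, 1 for each condition, out of 54 columns (6 conditions in each of 9 cell types). The table came from cultured mouse pancreatic islets of wild type (WT) animals and of animals with a whole-body knock-in of Med14 S983A (mutant), in which a serine of Med14, the scaffold subunit of the Mediator complex, is replaced by alanine. For each genotype there were islets without treatment (CON), islets given forskolin (FSK), a plant diterpene that raises cAMP by switching on adenylyl cyclase, and islets given Exendin-4 (Ex-4), a peptide that acts on the GLP-1 receptor, at 10 nM for 16 h. The dose and time of FSK and the age and sex of the animals are not given in the labels. The 8 sublibraries each mixed the 6 conditions, separated later by the first barcode, and do not serve as replicates. Each column is 1 pool of nuclei, which leaves no replicates, no test and no standard deviation, and condition cannot be told apart from islet pool or barcode well. All intervals below are 95% intervals of the counts and cover counting error only.

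PP cells release pancreatic polypeptide, a member of the neuropeptide Y family that acts on the gut, the exocrine pancreas and the brain. They arise from the same endocrine progenitors as beta, alpha and delta cells, they are found mainly in the part of the pancreas nearest the duodenum, and their secretion is driven by the vagus nerve through acetylcholine. They are a minor fraction of mouse islet cells. The comparisons were made to see which genes set these nuclei apart from the other endocrine nuclei, how much beta, alpha and delta cell RNA their columns held, and how they differed with treatment and genotype.

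The 6 PP columns held 466205 counts in all. The WT columns held 62210 counts in CON, 47424 in FSK and 38625 in Ex-4, and the mutant columns held 127727, 92331 and 97888. Levels are given as counts per 10000 counts of the column (CP10K), so that 1 count was worth between 0.0783 CP10K in mutant CON and 0.259 CP10K in WT Ex-4. PP nuclei contributed 1.53%, 1.18% and 0.950% of all counts in WT CON, FSK and Ex-4, and 3.41%, 2.26% and 2.68% in the corresponding mutant conditions. Each mutant share exceeded every WT share by more than its counting interval. Fewer nuclei of a type and less RNA per nucleus cannot be told apart in such shares. How many nuclei lie behind each column was not analysed here. Med14 itself rested on 2 to 10 counts per PP column (0.321 to 1.48 CP10K), and a point mutation need not change the amount of its mRNA, so its level does not check the genotype labels.

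The label was first set beside the hormone genes of PP cells. Ppy, which encodes pancreatic polypeptide, was at 10.9 (8.49 to 13.9), 12.0 and 8.28 CP10K in CON, FSK and Ex-4 of WT and at 7.12, 12.2 and 9.09 in those of the mutant. In no beta, alpha or delta column did Ppy exceed 1.05 CP10K, the level of the highest delta column. The smallest PP level was thus several times the largest level elsewhere in the endocrine columns, and the PP columns overlapped none of them. Over the 6 conditions summed, Ppy stood at 9.65 CP10K in PP columns, 0.797 in delta, 0.357 in alpha and 0.163 in beta, a ratio of 12.1 over delta (10.3 to 14.2). Pyy, which encodes the related peptide YY and lies next to Ppy on the minus strand of chromosome 11 (Pyy at 101997502 to 101998658 and Ppy at 101990756 to 101992145, GRCm39), was highest in PP columns in 6 of 6 conditions, at 3.14 to 5.47 CP10K. Delta columns followed with 1.93 CP10K summed over conditions, 2.18-fold less (1.84 to 2.57). The label of the PP columns thus matched both of these hormone markers, with Ppy the sharper of them. The authors grouped and named the nuclei from their transcripts, so this match describes the group and is no independent check of the label. A further list of PP markers had 5 members in the table, and not all were high in PP columns. Thsd7a was at 0.300 CP10K over the conditions, against 1.98 in alpha and 1.88 in delta. Abcc9 had 0 counts and Sertm1 had 1, and neither passed 0.0482 CP10K summed over conditions in another endocrine type. Etv1 and Meis2 are given with the transcription factors below.

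**Figure D1:**
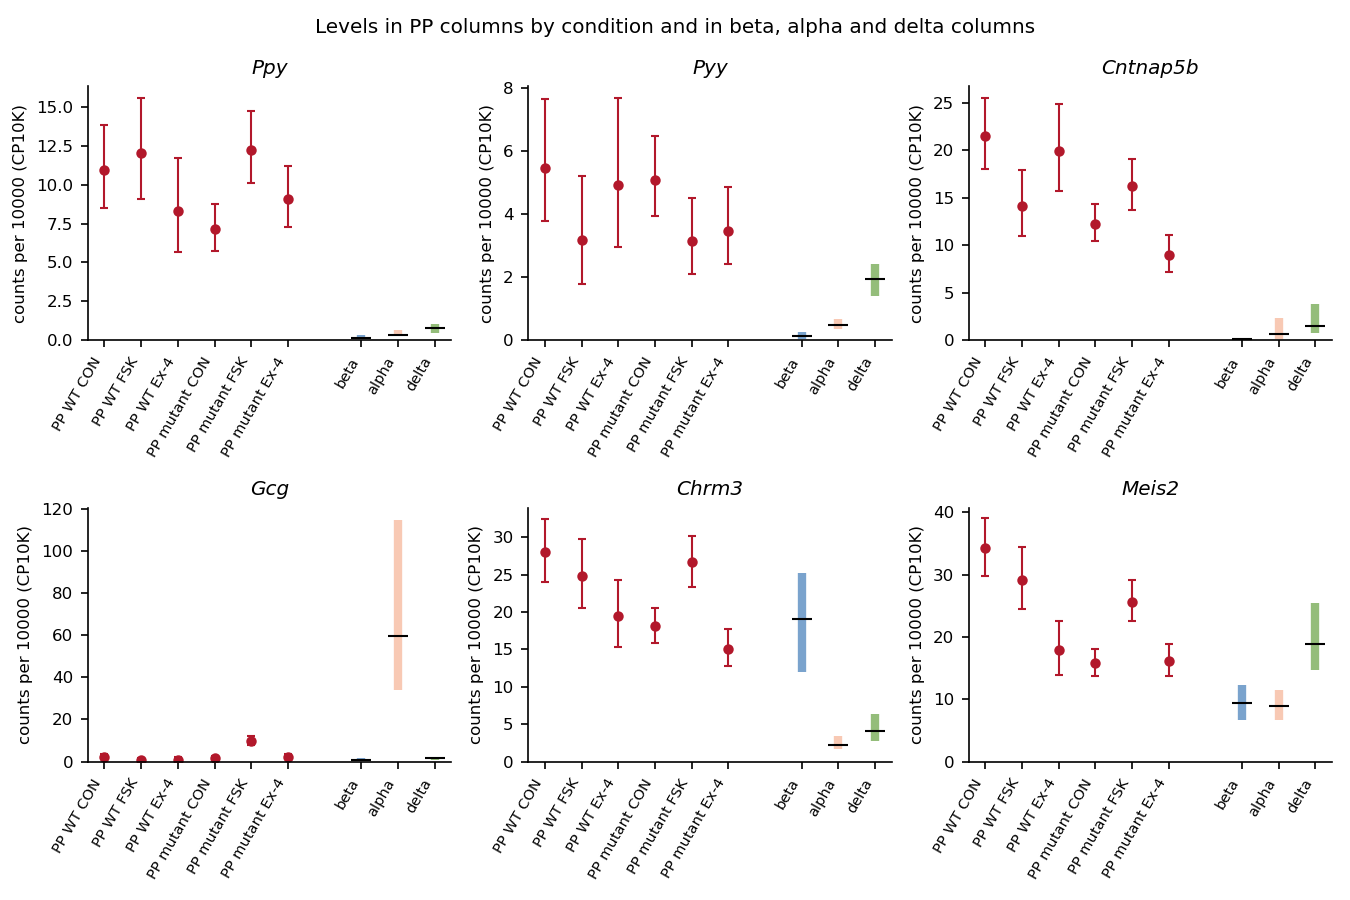
Levels in CP10K of 6 genes: red points are the 6 PP columns with 95% counting intervals, and coloured bars span the 6 beta, alpha or delta columns, with a black tick at the level summed over conditions. Ppy, Pyy and Cntnap5b are higher in PP columns than in any other endocrine column, Gcg is at 0.633 to 2.45 CP10K in 5 PP columns and at 9.86 in mutant FSK, and the PP points of Chrm3 overlap the range of beta columns.

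Besides Ppy, a small set of genes stood above every other endocrine type in every condition. Of 841 genes with at least 100 counts over the PP columns, 13 (1.55%) were at least 2-fold above beta, alpha and delta in each of the 6 conditions. Because the PP nuclei were grouped by the authors on these same transcripts, this is a description of the group and carries no test. The 13 genes were, from the largest ratio over the nearest type to the smallest, Ppy, Fstl4, Cntnap5b, Lrrtm4, Lrrk1, Colgalt2, Lrmda, Dpyd, Pdgfd, Mpped2, Pid1, Naaladl2 and Dlg2. The median span of these genes in the genome was 428 kb, against 173 kb for the 830 of the 841 genes with a match in the annotation.

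Of the 13, Cntnap5b, a contactin-associated protein of the neurexin superfamily, was at 14.4 CP10K over the conditions against 1.47 in delta, 0.671 in alpha and 0.127 in beta. Its PP levels were 21.5, 14.1 and 19.9 CP10K in WT CON, FSK and Ex-4 and 12.3, 16.2 and 8.99 in the mutant, all above the highest delta column (3.78). Dlg2, a scaffold protein of the postsynaptic density, had the largest level of the set and the smallest margin. It was at 53.0, 151 and 30.3 CP10K in WT and at 24.0, 131 and 22.9 in the mutant, and its ratio over alpha ranged from 2.08 upward. The FSK columns were the highest in both genotypes. Lrrtm4, a leucine-rich repeat protein of excitatory synapses, averaged 3.63 CP10K and was 8.13-fold above beta (6.83 to 9.64), but it varied widely among PP columns, from 0.861 in mutant CON to 7.36 in mutant FSK.

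The remaining members had varied roles. Fstl4, a follistatin-like secreted protein, was at 4.40 CP10K and 10.6-fold above alpha (8.56 to 13.2), with 8.52 and 8.54 CP10K in WT CON and Ex-4 and between 2.76 and 4.43 in the other columns. Lrrk1, a leucine-rich repeat kinase, was at 2.47 CP10K (6.97-fold above alpha), and Colgalt2, a collagen galactosyltransferase, at 2.19 CP10K (5.72-fold above alpha). Pdgfd, a platelet-derived growth factor, was at 4.18 CP10K and 3.64-fold above alpha, while beta columns held 0.0387. Dpyd, the enzyme that starts pyrimidine breakdown, was at 4.27 CP10K and 4.26-fold above alpha. Lrmda, Mpped2, Pid1 and Naaladl2 lay between 2.98 and 4.95 CP10K and were 2.65-fold to 4.50-fold above their nearest type. None of the 12 genes other than Ppy encodes a hormone.

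**Figure D2:**
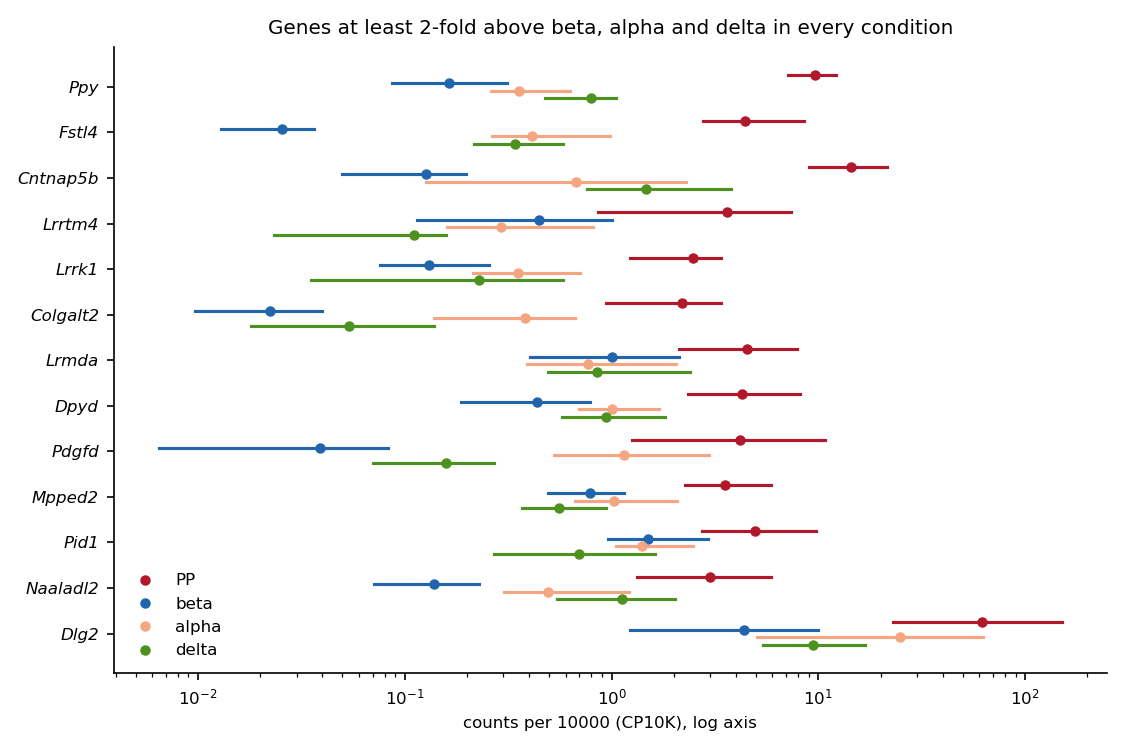
The 13 genes at least 2-fold above beta, alpha and delta columns in every condition, on a log axis of CP10K: points are levels summed over the 6 conditions and lines span the lowest to the highest condition. Ppy, Fstl4 and Cntnap5b have the largest ratios of summed levels over the nearest type (12.1, 10.6 and 9.82). The line of Dlg2 in PP columns overlaps that in alpha columns across conditions, although PP was at least 2.08-fold higher within each.

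Among the other endocrine types, alpha columns were the closest to PP columns. Over the 841 genes, Spearman's rho between the levels was 0.69 with alpha, 0.61 with delta and 0.50 with beta, and 83.9%, 79.9% and 71.9% of genes lay within 2-fold. These values describe pools that share sequencing runs, and genes are not independent. PP columns were at least 2-fold above alpha in every condition for 46 genes, above delta for 67 and above beta for 127. Genes above beta and delta but not above alpha numbered 36, against 17 above alpha and beta but not delta and 4 above alpha and delta but not beta.

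Among transcription factors, the alpha cell factors Irx1, Irx2 and Pou3f4 were at or near 0 in PP columns, with 2, 8 and 0 counts in all 6 columns together. Etv1, an ETS factor used as a PP marker, was at 8.94 CP10K, close to the 8.17 of alpha columns (ratio 1.10, 0.986 to 1.21). Meis2, a homeobox factor, was highest in PP columns in 6 of 6 conditions but only 1.16-fold above delta (1.08 to 1.24). Of 24 endocrine transcription factors in the table, 11 had at least 100 counts, 0 were 2-fold above the other types in every condition, and Meis2 was among those highest in all 6 conditions.

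Among receptors, Chrm3, a muscarinic acetylcholine receptor, was the best counted in PP columns. Its levels were 28.0 (24.0 to 32.4), 24.9 and 19.4 CP10K in CON, FSK and Ex-4 of WT and 18.1, 26.6 and 15.1 in those of the mutant. Summed over conditions it stood at 21.3 CP10K in PP columns and 19.1 in beta, but at 4.10 in delta and 2.18 in alpha. PP columns held the highest level in 6 of 6 conditions, by as little as 1.01-fold over beta. Insr, the insulin receptor, was also highest in PP columns in 6 of 6 conditions, at 2.02 CP10K against 1.04 to 1.30. Glp1r, the receptor of Ex-4, rested on 25 counts (0.536 CP10K), 7.66% of its level in beta columns. Igf1r, the receptor of insulin-like growth factor 1, was at 4.03 CP10K against 23.6 in beta and 10.6 in delta.

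Genes of secretion, excitability, cell contact and cAMP signaling were then read from lists. Of 21 genes of the secretory machinery, Snap25, a fusion protein of vesicles, and Cadps, which primes dense-core vesicles, were highest in PP columns in 6 of 6 conditions, at 5.96 and 25.6 CP10K, each within 1.2-fold of beta. Of 32 ion channel genes, Cacna2d1, an auxiliary subunit of calcium channels, was at 11.8 CP10K, 2.02-fold above beta (1.85 to 2.20). Among 33 genes of synaptic adhesion and guidance, Nrxn3, a presynaptic neurexin, was at 5.88 CP10K against 1.07 in alpha (5.50-fold, 4.69 to 6.45), although only 1.06-fold above alpha in its lowest condition, and its partner Nlgn1 was at 11.8 CP10K against 6.77 in delta. In the cAMP pathway, the phosphodiesterase Pde1a was 3.21-fold above alpha at 1.44 CP10K, Pde4d was at 33.1 CP10K against 27.9 in alpha and 5.94 in beta, and Gnas, the stimulatory G protein, was at 10.3 CP10K against 58.8 in delta. Med13l, a subunit of the kinase module of Mediator, was highest in PP columns in 6 of 6 conditions, at 3.80 CP10K. Apart from Ppy, 0 genes of these lists were 2-fold above the other types in every condition, but only 11 to 13 genes of the secretory, channel, adhesion and cAMP lists each had the 100 counts needed, beside the 1.55% called over all genes. Receptors of neuropeptide Y were not analysed here.

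Markers of the other endocrine cells were present in PP columns at a minor share of their own level. The median PP level was 9.65% of the own level over 12 beta markers, 11.5% over 9 alpha markers and 3.81% over the 5 of 6 delta markers that delta columns held. All 12 beta markers were counted, Ucn3 on 1 count only. Ins2 had 55 counts (1.18 CP10K against 12.3 in beta) and Slc2a2, the glucose transporter, 31 counts (0.665 against 7.38). Alpha and delta columns held Ins2 at 1.52 and 1.74 CP10K and Slc2a2 at 0.572 and 0.710. Gcg, which encodes glucagon, was at 5.61% of its alpha level, while Gc, the vitamin D binding protein, was at 105%. Of the delta markers, Sst, which encodes somatostatin, had 7 counts and Hhex 2, Ghsr and Lepr had 0 (Lepr in delta columns too), and Casr, the calcium-sensing receptor, was at 147% of delta. Ttr and Slc7a2, also alpha markers, were at 33.0% and 30.1%. Macrophage markers (4 of 4), the epsilon marker Ghrl and the cycling markers Mki67 and Top2a were at 0 in every PP column, and acinar, endothelial and stellate markers summed to at most 0.325 CP10K in any column. The 5 ductal markers summed to 1.27 to 3.37 CP10K, of which Krt7, at 1.29 CP10K, was higher still in beta columns (1.88).

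**Figure D3:**
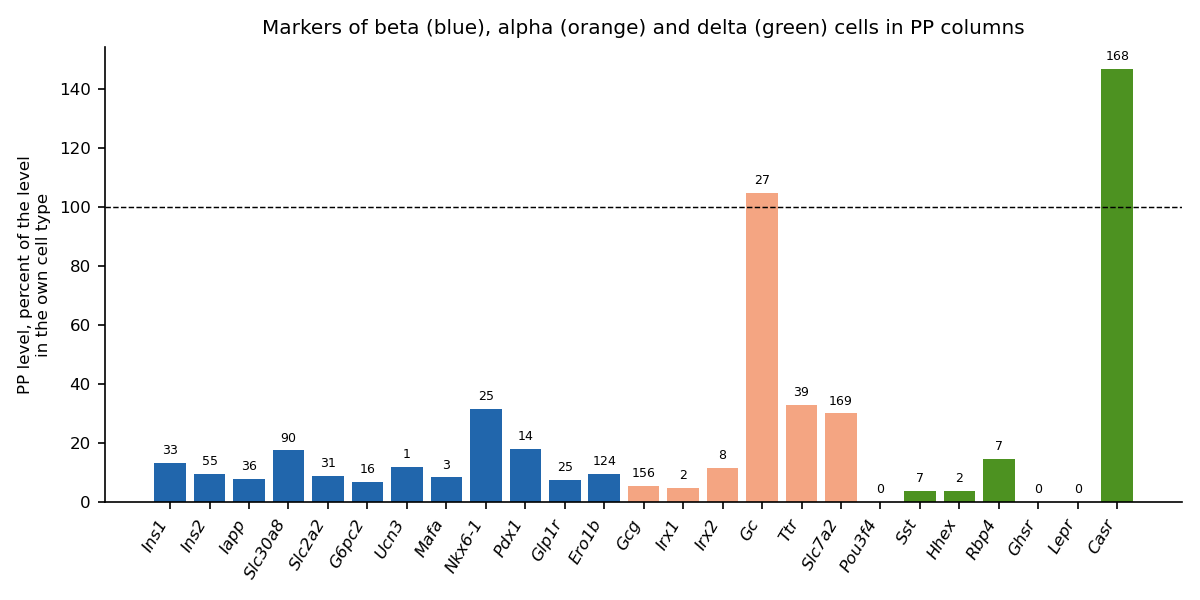
Level of beta, alpha and delta markers in PP columns as a percent of their level in their own cell type, summed over conditions, with the PP count above each bar and a dashed line at 100%. Bars for Gc and Casr pass the line and the others drawn stand at or below 33.0%, and 2 of the 9 alpha markers are not drawn.

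The share of these markers was uneven across conditions. The 12 beta markers summed to 21.4 CP10K in PP columns of WT CON and 18.4 in WT Ex-4, but to 4.22 in WT FSK and to 6.65, 5.85 and 9.19 in mutant CON, FSK and Ex-4. Relative to the beta columns of the same condition these were 20.4%, 23.3%, 3.98%, 9.95%, 6.09% and 13.4%, in that order. WT CON, the reference of 3 of the 5 comparisons below, thus had the highest summed level. Among alpha markers, Gcg stood at 0.633 to 2.45 CP10K in 5 PP columns and at 9.86 (7.94 to 12.1) in mutant FSK, on 91 counts. The other 8 alpha markers together lay between 6.11 and 11.1 CP10K in all 6 columns and at 7.26 in mutant FSK, so the difference in Gcg was not shared by them. The part of these transcripts in the results below was not tested.

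Treatment and genotype were compared as ratios of CP10K between 2 PP columns, for genes with at least 50 counts over both, and genes past 2-fold in either direction were counted. The WT Ex-4, WT FSK and mutant CON comparisons share the WT CON column, and both mutant comparisons share mutant CON, so their values are given side by side only. Ppy and Pyy stayed within 2-fold. Ppy was at 1.10 times its control level after FSK in WT (0.760 to 1.59), 0.758 times after Ex-4 in WT, 1.72 times after FSK in the mutant (1.29 to 2.29), 1.28 times after Ex-4 in the mutant and 0.652 times in mutant CON against WT CON (0.471 to 0.906). Pyy lay between 0.617 and 0.931 times its control in the 4 comparisons with enough counts.

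FSK gave more and larger differences than Ex-4. In WT, 39 of 358 genes (10.9%) were at least 2-fold higher after FSK and 17 (4.75%) at least 2-fold lower. In the mutant, 132 of 770 genes (17.1%) were higher and 69 (8.96%) lower. The median log2 ratio over all genes compared was 0.11 in WT and 0.18 in the mutant. These comparisons use 4 different columns. Of 352 genes compared in both, 33 were higher in both genotypes, which is 84.6% of the 39 higher in WT and 36.3% of the 91 higher in the mutant, and 5 were lower in both (Lars2, Cmss1, A330076H08Rik, Nktr and Srrm2). Of the 39 genes higher in WT PP columns, 21 were past 2-fold the same way in alpha columns, 9 in beta and 8 in delta, beside 7.26%, 6.15% and 5.87% of all 358 genes. Of the 132 in the mutant, 78 were so in alpha, 66 in beta and 56 in delta, beside 15.2%, 17.5% and 14.8% of all 770 genes. With the median ratio set to 1, WT FSK gave 33 higher and 24 lower and mutant FSK 100 and 95.

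The gene with the best counted difference in the mutant, and the second in WT, was Pde10a, a phosphodiesterase that degrades cAMP and cGMP (chromosome 17, 8744204 to 9205482, plus strand). WT PP columns went from 6.59 CP10K without treatment (4.73 to 8.94) to 83.1 with FSK (75.1 to 91.7), and mutant PP columns from 4.15 to 80.7. The FSK columns of both genotypes lay close together and far above the CON columns, while the Ex-4 columns were at 9.58 CP10K in WT and 5.31 in the mutant. The ratio was 12.6 in WT PP columns (9.12 to 17.8) against 3.46 in beta, 7.99 in alpha and 3.69 in delta, and 19.4 in mutant PP columns (14.7 to 26.2) against 4.69, 9.90 and 4.46. In both genotypes the interval in PP columns lay above those in the other types, the nearest being alpha (7.19 to 8.89 in WT and 9.11 to 10.8 in the mutant). The levels were ordered otherwise. In WT CON, beta, alpha and delta columns held 30.9, 9.95 and 37.6 CP10K, all above PP columns. In WT FSK they held 107, 79.4 and 139 CP10K, so that PP columns were above alpha only. The order was the same in the mutant.

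Other genes higher after FSK in both genotypes had roles in the nucleus, at synapses and in signaling. Cntnap5c, a paralog of Cntnap5b on chromosome 17, had 0 counts in WT CON and 67 in WT FSK, 29.3-fold higher when the 0 is read as 3 counts and at least 23.2-fold by the lower limit of the exact interval, and 24 and 150 counts in the mutant (8.65-fold, 5.59 to 13.9). Reads of near-identical paralogs can be split by counting, so Cntnap5c is less certain than single-copy genes. Cntnap5b was at 0.656 times its control in WT (134 to 67 counts) and 1.32 times in the mutant (157 to 150 counts). In the FSK column of each genotype the counts of Cntnap5b and Cntnap5c were equal. A division of reads between these paralogs was not tested. Neat1, the noncoding RNA of paraspeckles, went from 4.82 to 25.1 CP10K in WT and from 4.85 to 26.2 in the mutant. Nkain2, a membrane protein that binds the sodium pump, was 6.85-fold higher in WT and 8.37-fold in the mutant, against 6.06-fold and 1.85-fold in delta columns and 0.802 to 1.46 times in beta and alpha columns of either genotype. Dlg2, described above, was 2.84-fold higher in WT (2.49 to 3.24) and 5.43-fold in the mutant (4.79 to 6.17). Zdhhc14, a palmitoyltransferase, was 4.16-fold and 4.29-fold higher, and Pik3c2g, a phosphoinositide kinase, 3.54-fold and 4.43-fold.

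**Figure D4:**
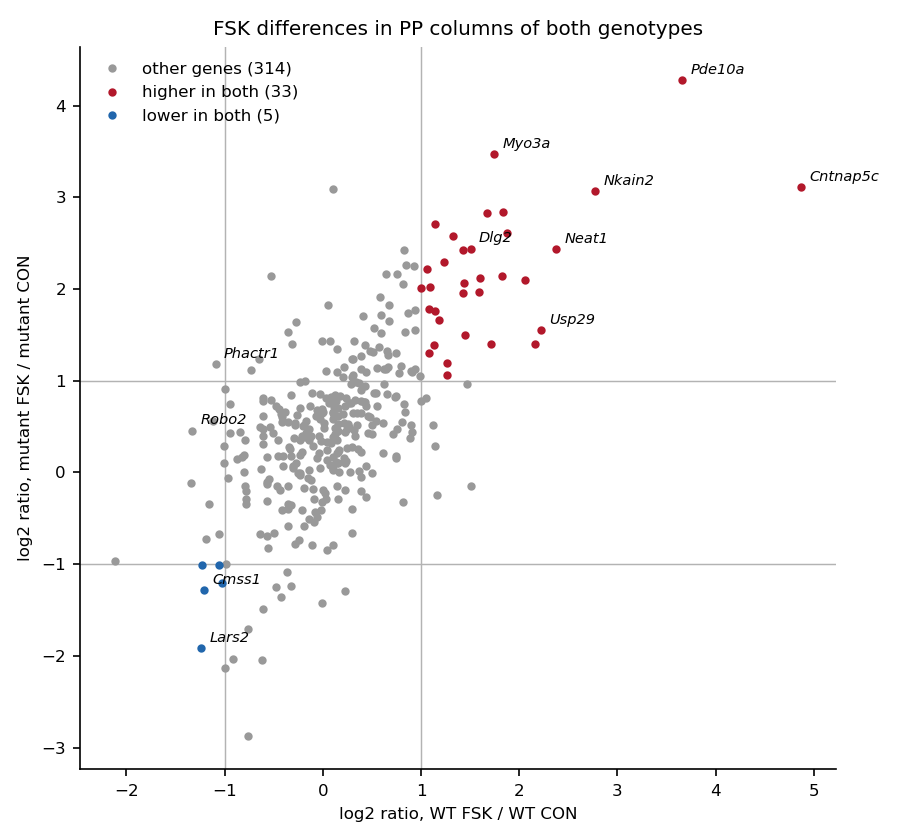
Log2 ratio after FSK in WT (horizontal) and mutant (vertical) PP columns for the 352 genes compared in both, with grey lines at 2-fold. Red points are the 33 genes higher in both and blue points the 5 lower in both, Cntnap5c is drawn in WT with its 0 read as 3 counts, and Pde10a lies far out on both axes.

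Within the cAMP pathway, 2 of 7 genes compared in WT were higher after FSK (Pde1c and Pde10a) and 4 of 11 in the mutant (Pde1c, Pde3b, Pde7b and Pde10a), all of them phosphodiesterases, beside 10.9% and 17.1% of all genes, and 0 were lower in either. The median log2 ratio of the list was 0.61 in WT and 0.72 in the mutant. Pde1c was 3.58-fold higher in WT (2.16 to 6.13) and 7.18-fold in the mutant (4.69 to 11.4). Of the 17 cAMP response genes in the table, only 2 had enough counts, Pde10a and Pde4d, and Pde4d was 1.58-fold higher in WT (1.30 to 1.92) and 1.82-fold in the mutant (1.57 to 2.10). Igf1r was higher in both genotypes (2.27-fold and 3.17-fold). In the mutant, Dusp10, a phosphatase of stress kinases, went from 4 to 63 counts (21.8-fold, 8.10 to 82.4), and Myo3a and Rnls were 11.1-fold and 12.3-fold higher.

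Cyclic AMP acts on transcription through CREB, which binds the palindrome TGACGTCA (CRE) or its shorter form TGACG. In the 250 bases upstream of the annotated start, read on either strand, the full site was found in 1 of the 33 genes higher after FSK in both genotypes (3.03%) and in 1.90% of 16530 genes, and the shorter site (which every full site also holds) in 9.09% and 21.4%. The 1 gene was Kctd8, an auxiliary subunit of GABA-B receptors, named after its values were seen, whose site starts 23 bases before the start. Kctd8 went from 11.6 CP10K without treatment to 23.2 with FSK in WT (2.00-fold, 1.48 to 2.74) and from 3.13 to 12.7 in the mutant (4.05-fold), against 1.00-fold and 2.43-fold in beta columns. Its upstream sequence (GRCm39, chr5:69499058-69499307, minus strand) is shown with the site in capitals, and that of Pde10a (chr17:9020275-9020524, plus strand), which holds neither form, is shown because that gene had the best counted difference.
Kctd8: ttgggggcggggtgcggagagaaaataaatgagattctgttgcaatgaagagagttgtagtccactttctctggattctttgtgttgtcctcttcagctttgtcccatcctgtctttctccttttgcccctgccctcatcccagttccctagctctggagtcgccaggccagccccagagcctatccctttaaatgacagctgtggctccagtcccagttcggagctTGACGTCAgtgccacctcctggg
Pde10a: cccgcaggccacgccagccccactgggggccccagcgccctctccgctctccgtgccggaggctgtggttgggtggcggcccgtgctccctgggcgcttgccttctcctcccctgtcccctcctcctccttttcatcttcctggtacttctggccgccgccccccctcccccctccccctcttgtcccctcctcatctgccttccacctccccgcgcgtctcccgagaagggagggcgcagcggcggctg
A match describes these letters only, and Pde10a has other annotated starts outside this window.

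The 5 genes lower after FSK in both genotypes were 33.3% of the 15 lower in WT and 27.8% of the 18 in the mutant among genes compared in both. In WT the best counted were Cntnap2, a neurexin-like adhesion protein (8.52 to 1.48 CP10K, 0.173 times, 0.0665 to 0.382), Agbl4, Kctd16, Lars2, Cmss1, Robo2, Slc16a10 and Phactr1. The ratios of Cntnap2 in the other types were 1.12 in beta, 1.07 in alpha and 0.820 in delta. Beta columns held Cntnap2 at 48.0 and 53.8 CP10K, and the beta marker list in the same PP columns summed to 21.4 CP10K without treatment and 4.22 with FSK. The part of beta transcript in the Cntnap2 difference was not tested. In the mutant, 4 of the 5 best counted belonged to a list of ribosomal RNA linked genes (Gm19951, Rn18s-rs5, Lars2 and Camk1d). Of that list, 6 of 7 compared were lower, beside 8.96% of all genes, with a median log2 ratio of -1.91 against 0.18. In WT 2 of 6 were lower, beside 4.75% of all genes, with a median of -0.88 against 0.11. Rn18s-rs5, the 18S ribosomal RNA repeat, went from 438 to 106 CP10K (0.243 times, 0.226 to 0.260), and beta, alpha and delta columns showed 0.203, 0.334 and 0.196 times. The list held 15 genes, 6 of them mitochondrial and 9 others, Rn7sk among the latter, and the link stated in its name was not tested. Several genes of this list were chosen by the study on these nuclei, so that the list is not independent evidence of its direction. Gcg was 5.99-fold higher in mutant FSK (3.70 to 10.1), beside the alpha markers given above. In alpha columns the 9 alpha markers, Gcg among them, summed to 50.2 CP10K in mutant CON and 114 in mutant FSK. Chga, a granule protein, was at 0.390 times its control, while Snap25, Syt13 and Pam, which amidates peptide hormones, were 2.08-fold to 2.88-fold higher.

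The untreated columns of the genotypes differed in more genes than WT Ex-4 from its control. In mutant CON against WT CON, 47 of 646 genes (7.28%) were at least 2-fold higher and 88 (13.6%) at least 2-fold lower, with a median log2 ratio of -0.25. With the median set to 1 the numbers were 76 higher and 58 lower, so the balance between the directions depended on the centring. Gm19951, Rn18s-rs5, Cmss1, Lars2, Camk1d and Cdk8, 6 of 6 ribosomal RNA linked genes compared, were higher. Rn18s-rs5 was 2.54-fold higher (172 against 438 CP10K, 2.38 to 2.72), and beta, alpha and delta columns showed 3.52-fold, 3.39-fold and 3.44-fold. Genes of this list made up 2.85% of the counts of the WT CON PP column and 7.31% of that of mutant CON.

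Cdk8, the kinase of Mediator and a member of the same list, stood at 17.8 CP10K (WT) and 59.0 (mutant) without treatment (3.31-fold, 2.71 to 4.08), at 33.1 and 38.5 in the Ex-4 columns and at 17.7 and 22.0 in the FSK columns. Its ratios between genotypes in the other types were 4.55, 4.95 and 4.34. Of 33 Mediator genes in the table, 1 other had enough counts in that comparison, and it was not past 2-fold. Prpf38b, Tcf25, Snrnp70 and Mprip were 4.20-fold to 7.11-fold higher in mutant CON on 5 to 9 counts in WT CON, and 1.58-fold to 3.73-fold higher in the other types. Prpf38b and Snrnp70 encode splicing proteins.

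The genes that set PP columns apart were mostly lower in mutant CON, and so were the synaptic genes. Of the 13 genes that stood above the other endocrine types, 10 could be compared, and 8 of them were at least 2-fold lower in mutant CON (Fstl4, Lrrtm4, Lrmda, Dpyd, Pdgfd, Mpped2, Pid1 and Dlg2), beside 13.6% of all genes compared. All 10 had ratios under 1, from 0.137 for Lrrtm4 to 0.652 for Ppy, with a median log2 ratio of -1.51 against -0.25 over all genes. In alpha columns, 7 of the same 10 genes were also at least 2-fold lower, in delta columns 5 and in beta columns 3, with medians of -1.54, -1.01 and -0.28. Lrrk1, Colgalt2 and Naaladl2 had too few counts to be compared. Lrrk1 went the other way, with 1.77 CP10K in WT CON (11 counts) and 2.66 in mutant CON (34 counts). Colgalt2 was at 3.05 and 0.940 CP10K and Naaladl2 at 4.66 and 1.33. Of all 88 genes lower in PP columns, 66 were past 2-fold the same way in alpha, 53 in delta and 42 in beta. Of all 646 genes compared, 24.5%, 16.6% and 14.6% were past 2-fold lower in alpha, delta and beta. The 88 genes had a median span of 301 kb against 183 kb for all genes compared and 61.9 kb for the higher ones. The beta marker list summed to 21.4 CP10K in the WT column and to 6.65 in the mutant one, and its part in these ratios was not tested. Beta columns held the 8 lower genes at levels from 0.0256 CP10K (Fstl4) to 1.51 (Pid1) and 4.39 (Dlg2).

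Lrrtm4 had 39 counts in WT CON (6.27 CP10K) and 11 in mutant CON (0.861), a ratio of 0.137 (0.0635 to 0.274) against 0.611 in beta and 0.612 in alpha. Kctd16, another GABA-B receptor subunit, was at 9.48 and 1.33 CP10K (0.140 times), and at 0.194, 0.0889 and 0.242 times in beta, alpha and delta. Pdgfd was at 6.11 and 1.25 CP10K (0.205 times, 0.107 to 0.377), with 0.366 times in alpha and, on few counts, 3.13 times in beta (1.26 to 8.45). Of the synaptic adhesion and guidance genes, 6 of 10 compared were lower (Nlgn1, Robo2, Unc5c, Cntnap2, Pcdh9 and Pcdh15) and 0 higher, beside 13.6% and 7.28% of all genes, with a median log2 ratio of -1.22. In the mutant FSK comparison 5 of 9 genes of this list were higher (Nrxn3, Nlgn1, Unc5c, Pcdh9 and Pcdh15), beside 17.1% of all genes, with a median of 1.32, and both comparisons use the mutant CON column. Among transcription factors Etv1, Meis1 and Meis2 were lower in mutant CON, Meis2 going from 34.2 to 15.8 CP10K (0.462 times, 0.379 to 0.563).

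**Figure D5:**
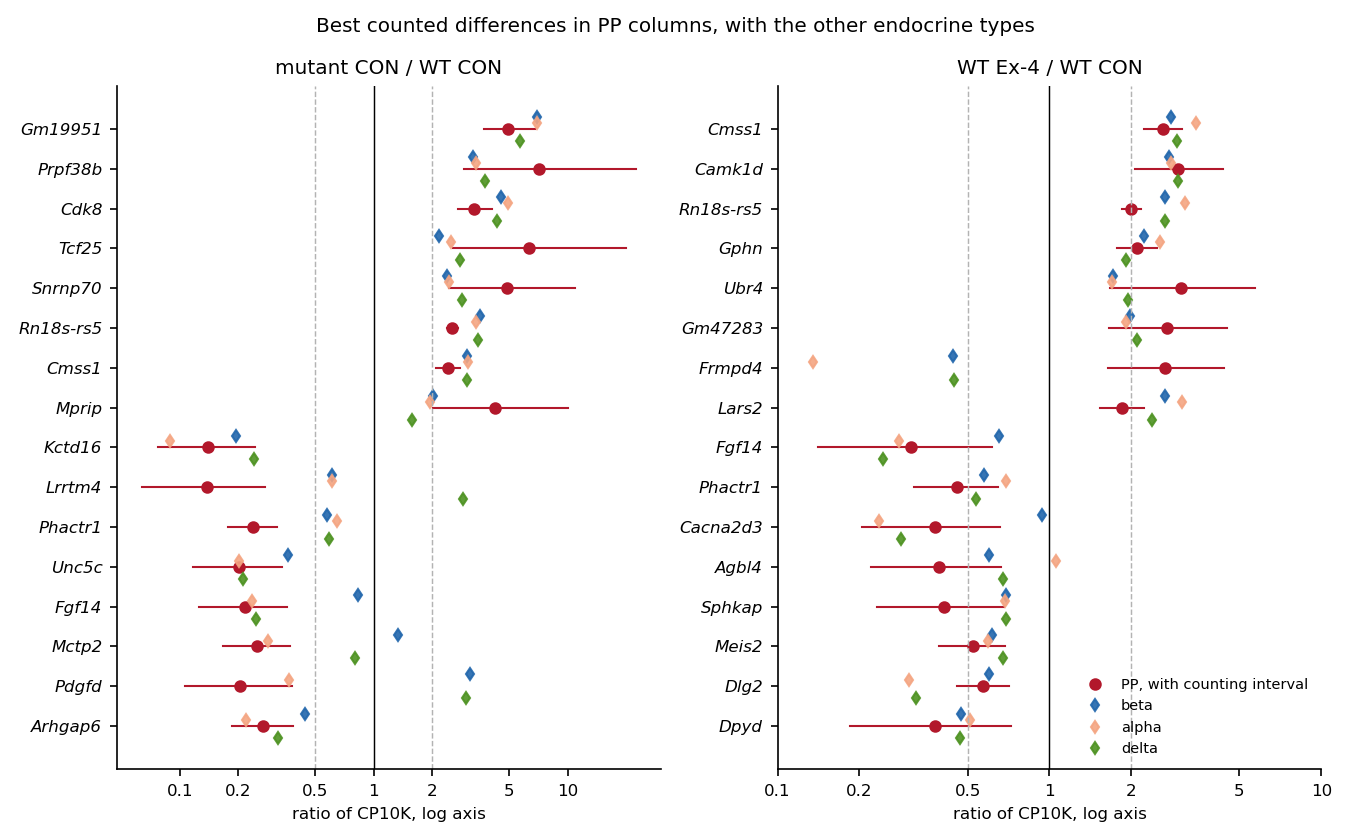
Ratios of CP10K on a log axis for the 8 higher and 8 lower best counted genes in mutant CON against WT CON (left) and WT Ex-4 against WT CON (right), with PP columns in red with 95% counting intervals, other endocrine types as diamonds and dashed lines at 2-fold. Ribosomal RNA linked genes are higher in every type, whereas Lrrtm4, Pdgfd and Frmpd4 differ between PP and some of the other types.

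Ex-4 in WT gave few large differences in PP columns, on the smallest of the 6 pools. Of 298 genes, 7 (2.35%) were at least 2-fold higher and 20 (6.71%) at least 2-fold lower, with a median log2 ratio of -0.22, and with the median set to 1 the numbers turned to 14 and 8. Genes of the ribosomal RNA linked list took 2.85% of the counts of WT CON and 5.91% of those of WT Ex-4. Cmss1 went from 39.4 to 103 CP10K (2.61-fold, 2.22 to 3.07), Camk1d was 2.98-fold higher, and Gm19951 was the third ribosomal RNA linked gene past 2-fold of 6 compared. Cmss1 and Camk1d were 2.76-fold to 3.46-fold higher in the other types as well. Frmpd4, a postsynaptic scaffold protein, went the other way from the other types, from 4.66 to 12.4 CP10K (2.67-fold, 1.65 to 4.38) against 0.443 times in beta, 0.135 times in alpha and 0.444 times in delta. These intervals did not overlap with that of the PP columns.

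Lower after Ex-4 in WT were Fgf14, which binds sodium channels (8.36 to 2.59 CP10K, 0.310 times, 0.140 to 0.616), Phactr1, a regulator of actin (23.8 to 10.9 CP10K, 0.457 times), Cacna2d3, Agbl4, Sphkap, which anchors protein kinase A, and Dpyd. Meis2 (0.522 times) and Dlg2 (0.571 times) were among the best counted but did not pass 2-fold. The cAMP pathway had 0 of 6 genes past 2-fold in either direction, with a median log2 ratio of -0.10, and Pde10a was at 6.59 and 9.58 CP10K. The beta marker list, at 21.4 CP10K in WT CON and 18.4 in WT Ex-4, was close in this pair. Of the 20 lower genes, 12 were past 2-fold the same way in delta, 10 in alpha and 7 in beta, beside 14.4%, 24.2% and 12.4% of all 298 genes.

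Ex-4 in the mutant gave the fewest differences of the 5 comparisons. Of 746 genes, 5 (0.67%) were at least 2-fold higher and 2 (0.268%) at least 2-fold lower, with a median log2 ratio of -0.01. Phactr1 went from 5.64 to 12.2 CP10K (2.16-fold, 1.60 to 2.93), Ddc, the decarboxylase that makes dopamine and serotonin, from 1.64 to 4.49 CP10K (2.73-fold, 1.59 to 4.84), and Rn7sk, a noncoding RNA that restrains transcription elongation, from 2.74 to 6.33 CP10K (2.31-fold). Ddc was between 0.773 and 1.05 times its control in the other types. Igf1r was 1 of 2 genes of the receptor list compared and was past 2-fold (2.07-fold, 1.21 to 3.60). Tmem131l was the fifth higher gene, and Nav3 (0.464 times) and Rbm6 were the 2 lower ones, Tmem131l and Rbm6 being named after their values were seen. Cdk8 was lower without passing 2-fold (0.652 times, 0.575 to 0.739), as were Ncor1, Arhgap21 and Med13l. The cAMP pathway had 0 of 8 genes past 2-fold, and of the 13 genes that set PP columns apart 8 were compared, 0 of them past 2-fold.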

How the data were processed

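Values were deposited by the authors as natural log values, ln(1 + CP10K), pooled over the nuclei of each condition and cell type. Per the methods of the study, nuclei were sorted, barcoded in rounds, aligned, filtered, integrated, clustered, named from marker genes and down-sampled per condition. Against multiplets, aggregates were gated out by pulse width and nuclei with extreme counts or features were removed, and no doublet caller is named. The build was mm39, per the submitters' processing notes. The log was undone, and the column totals that make all values whole recovered counts (all within 0.001 of a whole number). Ratios of CP10K were given exact conditional intervals and levels exact Poisson intervals, and shares Clopper-Pearson intervals (95%). A count of 0 was read as at most 3 counts. No test was run, because each group is 1 pool.

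Genes compared between conditions had at least 50 counts over both columns. Named genes were the called identity genes, the best counted (genes whose interval bound nearest 1 lay farthest from 1, 8 per direction, or 5 within the mutant) and list members. The PP nuclei and all lists were chosen with earlier results of these data known. Coordinates came from GENCODE M39 (GRCm39), in which 16531 of 17362 genes matched once by name. The interval and threshold code was run on simulated Poisson counts with planted changes larger than 2-fold. This checks the code only, not calls near the threshold or the spread between pools. Software was Python 3.11.15 with numpy 2.4.6, pandas 2.3.3, scipy 1.17.1 and matplotlib 3.10.9. Alternatives were other thresholds, count minimums, log2(CP10K + 1), median centring, totals without ribosomal RNA linked genes and, chosen after seeing the data, comparisons without genes at 0 in all columns of a condition. Some genes are not reported here.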

Additional observations from a re-analysis of the deposited data

Results flagged for a closer look

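A few genes went in opposite directions in the WT and mutant PP columns under the same treatment, with counting intervals on opposite sides of 1, and these differences were not tested. Phactr1 was at 0.457 times its control after Ex-4 in WT and at 2.16 times in the mutant, and at 0.470 times after FSK in WT and 2.27 times in the mutant. Its untreated columns were at 23.8 CP10K (WT) and 5.64 CP10K (mutant), while the 4 treated columns lay between 10.9 and 12.8. Cdk8 was at 1.86 times its control after Ex-4 in WT and 0.652 times in the mutant, with CON levels of 17.8 and 59.0 CP10K. Robo2, an axon guidance receptor, was at 0.398 times its control after FSK in WT and 1.37 times in the mutant, with CON levels of 21.2 and 9.32 CP10K.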

How the results depend on the processing

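Each result rests on 1 pool per condition, so these alternatives show the effect of processing only, and with 38625 to 127727 counts per column most genes had too few counts to compare. Of the counts of genes, marker shares and PP shares, 70 values moved and 43 did not under the alternatives run, and of the ratios of single genes and list medians 12 moved and 292 did not, with 0 reversed. No paired analysis was possible because each group is 1 pool.

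The 13 genes above all other endocrine types became 33 at 1.5-fold, 6 at 3-fold, 6 with 200 counts, 21 with no count filter, 4 on the log2(CP10K + 1) scale and 39 from summed levels. Marker shares moved without the hormone genes, to 20.8% for alpha and 9.27% for delta, and the summed delta list gave 45.8%. PP shares of endocrine counts were 1.61%, 1.24%, 0.990%, 3.72%, 2.42% and 2.91% (WT CON, FSK, Ex-4, then mutant). In the same order, PP shares of all counts without ribosomal RNA linked genes were 1.54%, 1.20%, 0.988%, 3.59%, 2.29% and 2.91%. With those genes they were 1.53%, 1.18%, 0.950%, 3.41%, 2.26% and 2.68%.

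At 1.5-fold, the numbers higher and lower were 30 and 60 (WT Ex-4), 101 and 203 (mutant CON), 83 and 50 (WT FSK), 36 and 47 (mutant Ex-4) and 239 and 136 (mutant FSK). At 3-fold they were, in that order, 1 and 1, 9 and 25, 15 and 3, 0 and 0, and 58 and 16. With 20 counts they were 31 and 106, 195 and 288, 92 and 91, 80 and 101, and 316 and 277, and with 100 counts 4 and 2, 20 and 37, 14 and 6, 1 and 0, and 66 and 25. On the log2(CP10K + 1) scale 10 were lower after WT Ex-4, 24 higher in mutant CON, 9 lower after WT FSK, 1 higher and 0 lower after mutant Ex-4, and 33 lower after mutant FSK. With the median set to 1, 14 were higher and 8 lower after WT Ex-4, and 76 higher and 58 lower in mutant CON. Leaving out genes at 0 in all columns of a condition, an alternative chosen after seeing the data, changed 0 of these numbers.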
